A study of Rattus norvegicus with 82 samples.

Results

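The 27 Sham arrays of this rat brain series, 14 labelled PM and 13 labelled AM, were compared for differences between evening and morning. They were chosen by their titles alone, out of 82 arrays in all. Each array measured RNA from 1 of 7 brain regions: in the forebrain the frontal cortex, hippocampus, septum, amygdala and hypothalamus, and in the brainstem the dorsal raphe and locus coeruleus. Every region had 2 Sham arrays at each time, except frontal cortex, which had 1 AM array whose title gave its group. The titles give the treatment (Sham, and, for the other arrays, ADX or pADX), the time and the region, and a letter b marks the second array of a pair. They do not spell out these abbreviations or the clock hours, and no source used here gives the strain, sex, age or number of animals behind an array. For septum, dorsal raphe, locus coeruleus and hypothalamus, the source field and the opening words of the title name another region, frontal cortex or left hippocampi. The regions of these arrays were taken from the abbreviations S, DR, LC and Hypo later in the title and checked against marker genes.

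Rats are active at night, and their adrenal cortex releases the glucocorticoid corticosterone in a daily rhythm that peaks near the start of the dark phase. Corticosterone enters the brain, binds the glucocorticoid and mineralocorticoid receptors (Nr3c1 and Nr3c2), and the bound receptors switch on target genes such as Fkbp5, Sgk1 and Tsc22d3. Cells also hold a clock of their own, in which Bmal1 and Clock drive the Per, Cry and Nr1d genes, whose products feed back on Bmal1 and Clock.

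The marker genes mostly followed the regions read from the abbreviations in the titles. Avp, Oxt, Hcrt and Pmch, which encode hypothalamic neuropeptides, were highest in the arrays read as hypothalamus, while Pomc and Otp were at the floor of the scale there. Slc6a4, the serotonin transporter, had a mean log2 signal of 10.82 in dorsal raphe and of 9.62 in locus coeruleus. Dbh, which makes noradrenaline, was raised in locus coeruleus only among the 7 regions, at 8.05, but Slc6a2, the noradrenaline transporter, stood at 4.49 there, near the floor of 4. Markers chosen for septum and amygdala were mixed. Zic1 and Zic4 were highest in septum, but Dlk1, Prlr, Sst, Nts, Chat and Slc5a7 were not. Etv1, Nr2f2 and Slc17a7 were highest in amygdala, but Tac3, Cyp26b1 and Sim1 were not. Each array correlated with the mean of its region at r of 0.974 to 0.992. The median deposited signal ran from 31.3 to 59.2 over the 27 arrays, and the Sham arrays of frontal cortex, septum, amygdala and locus coeruleus, with the PM arrays of dorsal raphe, had been brought to a common trimmed mean, whereas the others had not. All values given here are on the log2 scale after quantile normalization over the 82 arrays, where 27.5% of the Sham values lay at the floor.

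The evening arrays differed from the morning arrays at a small part of the probe sets. With region as a covariate, limma called 128 of 31042 probe sets at a Benjamini-Hochberg adjusted p of 0.05, which is 0.412% of those tested, and 73 of them rose (0.235%) while 55 fell (0.177%). On the values as deposited, without the quantile step, 80 rose and 20 fell, and after median scaling 61 rose and 81 fell. The count was 76 and 107 without the first and the second AM set, and 279 and 427 without the first and the second PM set. It was 225 without frontal cortex and 228 without the second PM array of frontal cortex. Without septum, hypothalamus, hippocampus or locus coeruleus it was 61, 79, 62 or 69. Counted as genes, with 1 probe set each, 42 of 14217 rose (0.295%) and 30 fell (0.211%). The change had the same sign in all 7 regions for 116 of the 128 probe sets, a share that their choice over the same 7 regions largely fixes. Arrays that share a time and a replicate letter form 4 sets, and the labels do not say whether the regions of a set came from the same animals. When each set was reduced to its mean, which leaves 2 AM and 2 PM values, limma called 0 probe sets, with 2612 at an unadjusted p under 0.05, 117 of the 128 among them. The adjusted p values given here treat the 27 arrays as separate samples apart from a fitted correlation within sets of 0.0318, and they measure the spread between arrays, which may be technical.

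Genes known as targets of glucocorticoids made up the most numerous group of risers among the lists examined. Of 44 measured members of a list of glucocorticoid-induced genes, 9 rose and 0 fell, with a median log2 change of 0.092 against -0.003 over all 14217 genes. The risers were Gpd1, Sgk1, Ddit4, Pdk4, Tsc22d3, Plekhf1, Mertk, Klf9 and Fkbp5, and 13 of the 44 members had an unadjusted p under 0.05 over the 4 set means. Over all 14217 genes 0.295% rose and 0.211% fell, and 8.83% had an unadjusted p under 0.05 over the set means, and the counts of every list below stand against these same shares. The count of risers was 5 without the first AM set, 3 without the second AM set and 5 without the first PM set. It was also 5 without hypothalamus, hippocampus or locus coeruleus, and 1 in the 4 regions at the common scale. These lists were drawn up with results from these arrays known, so their counts are a description.

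Gpd1, the cytosolic enzyme that turns a glycolytic intermediate into glycerol 3-phosphate, showed the largest rise among the named genes. Its log2 signal was 7.08 to 7.88, with a median of 7.62, on the 13 AM arrays. On the 14 PM arrays it was 7.93 to 9.59, with a median of 8.89. The ranges did not overlap, and every PM array lay above every AM array. The log2 change across regions was 1.31 ± 0.105 (SE), a 2.47-fold rise (limma, adjusted p = 2.56e-06). A second Gpd1 probe set, at the floor on 6 AM arrays and on no PM array, gave a log2 change of 1.51 (limma, adjusted p = 0.00332). By region, the rise ran from 0.85 in frontal cortex to 1.69 in dorsal raphe, where the AM and PM arrays also differed in their deposited scaling.

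Sgk1, a serum- and glucocorticoid-regulated kinase that acts on ion channels and transporters, had log2 signals of 7.41 to 8.82 (median 8.06) at AM and of 8.33 to 10.05 (median 8.98) at PM. The ranges overlapped, with a difference of 0.03 in frontal cortex and of 0.65 to 1.37 in the other regions. The log2 change across regions was 0.96 ± 0.16 (SE), a 1.94-fold rise (limma, adjusted p = 0.00636). The 2 PM sets differed: the first had a mean of 9.46 and the second of 8.67. Accordingly the log2 change was 0.57 without the first PM set and 1.31 without the second. The call was lost without either AM set (limma, adjusted p = 0.155 and 0.0598).

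Ddit4 and Tsc22d3 were higher at PM in every region. Ddit4, an inhibitor of the growth-regulating kinase mTOR complex, rose from 7.84 to 8.58 (median 8.08) at AM to 8.34 to 9.20 (median 8.86) at PM, a log2 change of 0.69 ± 0.07 (SE; limma, adjusted p = 5.27e-05). Tsc22d3, which encodes the leucine zipper protein GILZ, had 8.65 to 9.91 (median 9.02) at AM and 9.04 to 10.28 (median 9.69) at PM, a log2 change of 0.49 ± 0.06 (SE; limma, adjusted p = 0.000402). Both pairs of ranges overlapped, since the regions start from different levels, but within each of the 7 regions both PM arrays lay above the AM arrays for both genes. Without the second AM set, the change of Tsc22d3 was 0.42 and the call was lost (limma, adjusted p = 0.0622).

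The other 5 glucocorticoid-induced risers had changes of 0.33 to 0.54. Pdk4, a kinase that holds back the entry of pyruvate into the citric acid cycle, rose by 0.54 (limma, adjusted p = 0.0121). Plekhf1, an endosomal and lysosomal adaptor protein, rose by 0.44 (limma, adjusted p = 0.000838). Klf9, a transcription factor, had 8.05 to 9.65 (median 8.75) at AM and 8.72 to 10.06 (median 9.12) at PM and rose by 0.34 (limma, adjusted p = 0.0308). Fkbp5, a co-chaperone of the glucocorticoid receptor, rose by 0.33 (limma, adjusted p = 0.0308), and Mertk, a receptor for the uptake of dying cells and debris, by 0.38 (limma, adjusted p = 0.0322). These 5 genes had positive values in all 7 regions. Leaving out 1 set ended the calls of Klf9, Fkbp5, Pdk4 and Mertk for 3 of the 4 sets, all but the second PM set: without the first PM set, for example, Klf9 changed by 0.20 (limma, adjusted p = 0.146). The calls of Gpd1, Ddit4 and Plekhf1 held without each set in turn. A second probe set of Fkbp5 gave a log2 change of 0.49 and 1 of Mertk gave 0.55, neither of which passed. Further probe sets of Klf9 gave 0.51 and, mostly at the floor, 0.13, and 1 of Pdk4 gave 0.39, also without passing.

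Members of the list that did not pass included Tsc22d1, a relative of Tsc22d3, with a log2 change of 0.10 (limma, adjusted p = 0.0515), and the crosslinking enzyme Tgm2, with -0.48 (limma, adjusted p = 0.0737). Per1 had a change of 0.46, with 5 AM and 2 PM arrays at the floor (limma, adjusted p = 0.636). Sult1a1, a sulfotransferase, had a change of 0.33 (limma, adjusted p = 0.162), which was 0.51 without the second PM set and then passed (limma, adjusted p = 0.0103), and 0.15 without the first (limma, adjusted p = 0.422). Nfkbia, Cebpd and Il6r had changes of 0.33, 0.38 and 0.41 that did not pass. The receptors had negative values that did not pass either: Nr3c1 had a change of -0.20 (limma, adjusted p = 0.362) and Nr3c2 of -0.15 (limma, adjusted p = 0.607). Without the first PM set, Nr3c1 had a change of -0.32 that passed (limma, adjusted p = 0.00874), and without the second one of -0.07 (limma, adjusted p = 0.694). Of the 14 measured genes of the pituitary-adrenal axis and corticosteroid receptor list, 0 passed in either direction by limma, and 2 of them had an unadjusted p under 0.05 over the 4 set means.

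**Figure D1:**
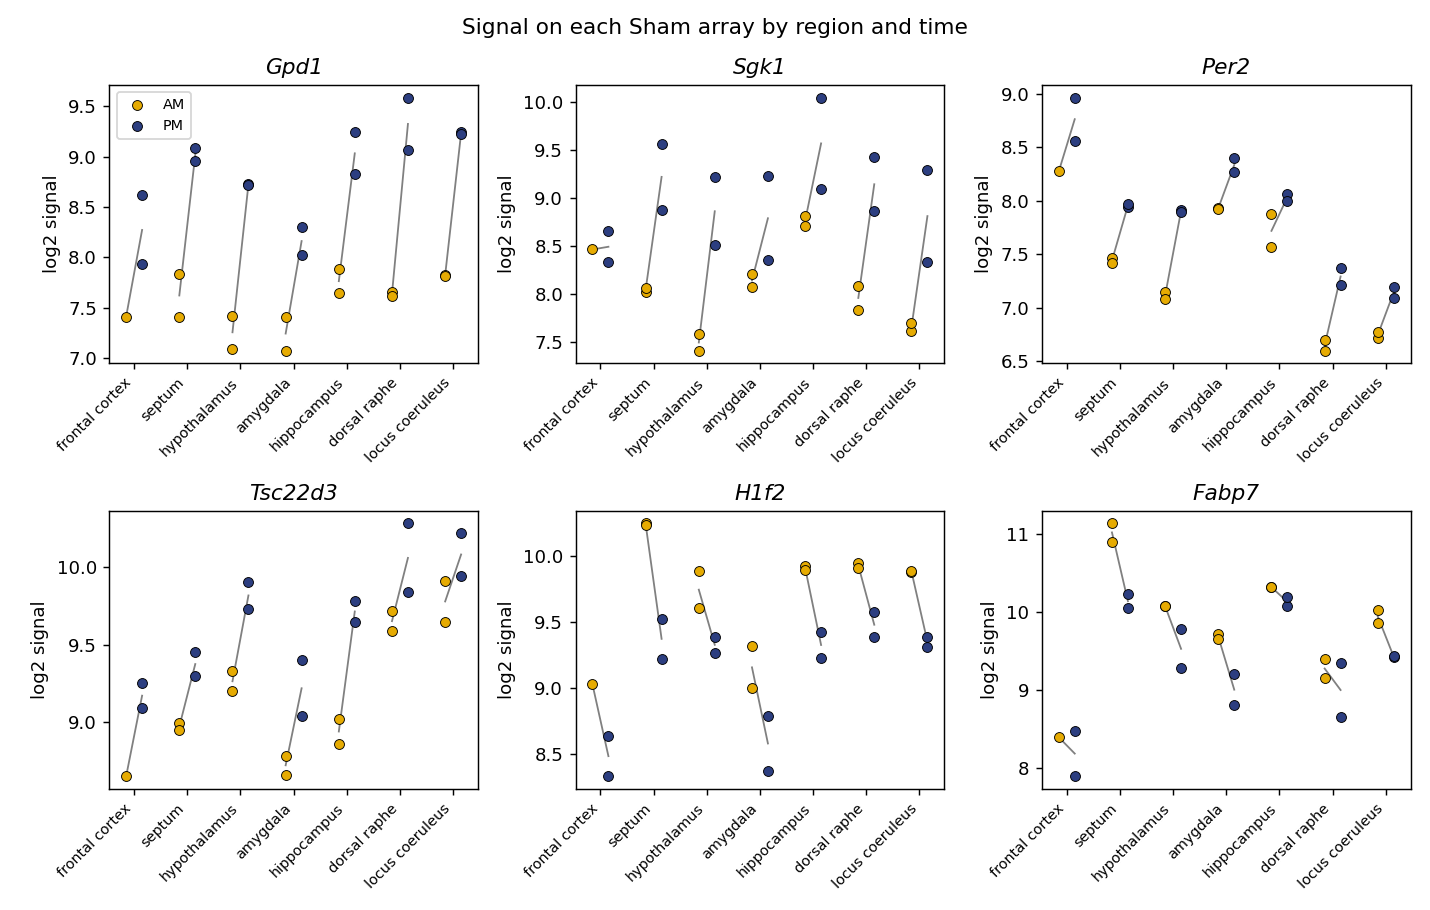
The log2 signal of 6 genes on each of the 27 Sham arrays (y axis) by brain region (x axis), with AM arrays in yellow, PM arrays in blue and a grey line between the 2 means of a region. Gpd1, Per2 and Tsc22d3 lie higher at PM in all 7 regions and H1f2 and Fabp7 lower, while Sgk1 changes by 0.03 in frontal cortex and by 0.65 to 1.37 elsewhere.

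Among the clock genes, the period gene Per2 rose, along with Nr1d2. Per2, a repressor of Bmal1 and Clock, had log2 signals of 6.60 to 8.27 (median 7.42) at AM and of 7.09 to 8.96 (median 7.96) at PM. The ranges overlapped, and the PM arrays lay above the AM arrays within each region. The log2 change was 0.51 ± 0.055 (SE; limma, adjusted p = 5.93e-05), and it stayed between 0.45 and 0.57 without each set in turn. Nr1d2, a nuclear receptor that represses Bmal1, rose by 0.33 (limma, adjusted p = 0.0141). A second Nr1d2 probe set gave 0.27 without passing. The call of Nr1d2 was lost without either AM set (limma, adjusted p = 0.224 and 0.0956).

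Of 21 measured genes of the core clock list, these 2 rose and 0 fell by limma, with a median change of 0.044, where 0.295% of all genes rose. Over the set means 7 of the 21 had an unadjusted p under 0.05, against 8.83% of all genes. Dbp, which binds the D-box, was higher at PM in all 7 regions, by 0.36, and missed the threshold (limma, adjusted p = 0.0863), but it passed without the second PM set, with 0.39 (limma, adjusted p = 0.0412). Its relative Hlf had 0.23 (limma, adjusted p = 0.0717), and Per3 had 0.45 (limma, adjusted p = 0.26). The activators lay the other way without passing: Bmal1 had -0.29 (limma, adjusted p = 0.282), Npas2 -0.23 and Clock -0.08, and 2 more Clock probe sets gave -0.15 and -0.28. Without the second PM set the list held 4 genes that rose and 1 that fell. The count of risers was 1 without either AM set, without any of septum, hypothalamus, amygdala, hippocampus and locus coeruleus, or in the 4 regions at the common scale. Nr1d1, the partner of Nr1d2, had -0.26 (limma, adjusted p = 0.607), with positive values in frontal cortex and septum. Cry1 had 0.10, Cry2 -0.02 and Bhlhe41 0.03, and the last 2 changed sign under some settings.

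Genes induced by neuronal activity and by heat held 2 risers in each list. Of 27 measured immediate early and activity genes, Egr1 and Dusp6 rose and 0 fell, with a median change of 0.110, the highest of the pathway lists. Egr1, a transcription factor induced within minutes of stimulation, rose by 0.34 (limma, adjusted p = 0.0291), but its call was lost without either AM set (limma, adjusted p = 0.212 and 0.156). Dusp6, a phosphatase that turns off ERK kinases, rose by 0.34 (limma, adjusted p = 0.00401), and 2 further probe sets gave 0.23 and 0.60 without passing. Its call was lost without the first AM set (limma, adjusted p = 0.071). Fos, Nr4a1, Junb and Arc had changes of 0.47, 0.36, 0.31 and 0.38, none of which passed. By limma the list held 0 calls without the first AM set and 0 in the 4 regions at the common scale, and 1 without any of the second AM set, septum, hypothalamus, hippocampus or locus coeruleus. Over the set means, 5 of the 27 had an unadjusted p under 0.05.

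Of 19 heat shock and cold-inducible genes, 2 rose and 0 fell, with a median of 0.006. Hspa1a, the stress-induced HSP70 chaperone, had 5.21 to 6.33 (median 6.01) at AM and 5.87 to 6.75 (median 6.50) at PM. It rose by 0.51 (limma, adjusted p = 0.0107), from 0.06 in amygdala to 1.05 in septum. Its co-chaperone Dnajb1 rose by 0.40 (limma, adjusted p = 0.00106), and a second Dnajb1 probe set by 0.31 (limma, adjusted p = 0.0428). The call of Dnajb1 held without each set in turn, with 0.37 to 0.45. Without either AM set the call of Hspa1a was lost (limma, adjusted p = 0.141 and 0.0833). The list held 1 call without either AM set or without septum, hippocampus or locus coeruleus, and 0 in the 4 regions at the common scale.

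The remaining named risers were of varied function. Abcg2, an efflux transporter of brain capillaries, had 6.26 to 7.02 at AM (median 6.70) and 7.04 to 7.74 at PM (median 7.37), so that the ranges did not overlap. Its log2 change was 0.69 ± 0.08 (SE; limma, adjusted p = 0.000129). Bmp4, a secreted growth factor of the bone morphogenetic protein family, rose by 0.56 (limma, adjusted p = 0.000592). Timm8a1, a chaperone of protein import into mitochondria, rose by 0.52 (limma, adjusted p = 0.00658), and Mtmr2, a phosphatase of membrane phosphoinositides, by 0.49 (limma, adjusted p = 0.00153). The calls of these 4 genes held without each set in turn, but a second Timm8a1 probe set gave 0.47 without passing. Adipor2, a receptor for adiponectin, rose by 0.56, and Opcml, a neuronal cell adhesion molecule, by 0.56 with 1 probe set and by 0.87 with another. Further Adipor2 probe sets gave 0.45 and, mostly at the floor, 0.05 without passing. Cdc73, a subunit of the PAF1 transcription complex, rose by 0.74, Arhgap32 by 0.50, and Rrp8, a nucleolar protein that acts on ribosomal RNA genes, by 0.50. Rrp8 was the exception among the 24 named risers in sign, with -0.26 in frontal cortex, and the other 23 had positive values in all 7 regions. Each of Adipor2, Opcml, Cdc73, Arhgap32 and Rrp8 lost its call without at least 1 set. The highest adjusted p of those fits by limma was 0.189, 0.261, 0.149, 0.314 and 0.208, in that order, and without the first AM set the change of Arhgap32 was 0.32.

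The promoters of the risers were searched for 5 short motifs, since several of these genes moved together. RefSeq sequence of GRCr8 was matched for 22 of the 24 named risers and for 13 of the 15 named genes that fell, with Gpd1 not among them. Within the 250 bases before the gene start, on either strand, the E-box CACGTG was found in Bmp4 and Timm8a1, the cyclic AMP response element TGACGTCA in Abcg2 and Plekhf1, and the D-box TTATGTAA in Per2. The palindromic glucocorticoid element pattern ACANNNTGT was found in Hspa1a, Plekhf1 and Dusp6, and the heat shock pattern GAANNTTC in Abcg2, Adipor2, Pdk4 and Dnajb1. Among the genes that fell, Col4a5 held GAANNTTC and Glb1 CACGTG, and the other 3 motifs were not found in the 13 sequences. Of all 27457 promoters of the same length, 5.79% hold CACGTG, 1.7% TGACGTCA, 0.816% TTATGTAA, 5.62% ACANNNTGT and 7.02% GAANNTTC. A match is a description of letters and not of a bound site.

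The 4 promoters that follow belong to 4 of the risers whose calls held without each set in turn and that hold a motif, shown with the motif in capitals, 5′ to 3′ on the gene's strand and ending at the base before the gene start. Per2 (chr9:99496994-99497243, minus strand) has the D-box at 192 to 185 bases before the start. Plekhf1 (chr1:100046818-100047067, minus strand) has ACACTCTGT, a match to ACANNNTGT, at 149 to 141 and the cyclic AMP response element at 37 to 30 bases before the start. Abcg2 (chr4:89075224-89075473, plus strand) has GAATCTTC, a match to GAANNTTC, at 236 to 229 and the cyclic AMP response element at 62 to 55. Timm8a1 (chrX:102015445-102015694, minus strand) has the E-box at 58 to 53.
Per2: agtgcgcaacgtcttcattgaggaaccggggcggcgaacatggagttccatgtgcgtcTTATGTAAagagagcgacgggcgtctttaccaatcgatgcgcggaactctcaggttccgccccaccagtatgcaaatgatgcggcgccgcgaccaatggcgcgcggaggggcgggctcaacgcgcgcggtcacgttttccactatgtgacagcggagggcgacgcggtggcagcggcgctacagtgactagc
Plekhf1: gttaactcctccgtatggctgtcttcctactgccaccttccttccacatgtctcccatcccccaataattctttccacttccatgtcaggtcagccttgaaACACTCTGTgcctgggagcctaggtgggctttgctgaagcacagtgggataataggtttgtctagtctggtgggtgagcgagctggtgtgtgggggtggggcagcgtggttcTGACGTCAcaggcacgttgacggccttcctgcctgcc
Abcg2: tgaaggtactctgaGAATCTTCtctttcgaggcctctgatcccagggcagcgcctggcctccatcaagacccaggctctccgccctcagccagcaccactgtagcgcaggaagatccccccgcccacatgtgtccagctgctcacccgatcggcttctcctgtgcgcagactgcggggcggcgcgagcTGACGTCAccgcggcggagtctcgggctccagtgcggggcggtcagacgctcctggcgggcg
Timm8a1: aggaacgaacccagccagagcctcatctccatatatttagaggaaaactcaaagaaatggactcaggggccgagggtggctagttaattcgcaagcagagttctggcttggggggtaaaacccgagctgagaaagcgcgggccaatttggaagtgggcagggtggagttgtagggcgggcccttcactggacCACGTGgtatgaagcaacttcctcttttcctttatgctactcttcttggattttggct

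Kdr fell among the endothelial markers. This gene, a receptor for vascular endothelial growth factor, had 6.25 to 7.26 (median 6.87) at AM and 5.52 to 6.74 (median 6.18) at PM, a log2 change of -0.62 ± 0.105 (SE; limma, adjusted p = 0.00658). The AM arrays lay above the PM arrays within each of the 7 regions. The call was lost without the second AM set (limma, adjusted p = 0.111). Of 9 endothelial markers, Kdr fell and Flt1, another receptor for the same growth factor, rose by 0.47 (limma, adjusted p = 0.0378), while Tek, the angiopoietin receptor, had -0.25 (limma, adjusted p = 0.0702). The median of the 9 was -0.006. The summed linear signal of 5 blood markers was lower at PM in 6 of the 7 regions, hypothalamus being the exception. In frontal cortex, septum, amygdala, hippocampus and locus coeruleus every PM array lay below the AM arrays, with a log2 ratio of the means from -0.839 in septum to -0.279 in locus coeruleus. With 2 arrays at each time, and 1 AM array in frontal cortex, such separation was not rare. It was seen downward in 4 regions for hippocampus markers and in 3 each for oligodendrocyte precursor, cerebellum and striatum markers. The neuron, septum and amygdala markers were separated upward in 2 regions each. A linear sum mostly follows its brightest members, and only 2 of the 5 blood markers had a mean of at least 6. Taken gene by gene over all regions, 3 of the 5 had positive and 2 negative changes, with a median of 0.124. The part of the blood signal in these results was not tested.

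Of 33 matrix and matrix protease genes, 1 fell and 0 rose, with a median change of -0.118. Mmp14, a membrane-bound protease that cuts collagens, had 6.90 to 8.21 (median 7.43) at AM and 6.27 to 7.53 (median 6.66) at PM. It fell by 0.72 on the log2 scale (limma, adjusted p = 0.00962), with a value of 0.03 in hippocampus. The largest fall, -1.26, was in dorsal raphe, where the AM and PM arrays also differed in their deposited scaling. A second Mmp14 probe set, at the floor on 5 PM arrays, gave -0.265 without passing. Tnr, the glycoprotein tenascin-R of perineuronal nets, had a log2 change of -0.83 and missed the threshold (limma, adjusted p = 0.0509). Mmp14 lost its call without either AM set (limma, adjusted p = 0.0928 and 0.0544). By limma 0 of the 33 genes passed without either AM set, septum or locus coeruleus or in the 4 regions at the common scale, while 3 fell without the second PM set and 2 without frontal cortex. Over the set means, 7 of the 33 had an unadjusted p under 0.05. Col4a5, a chain of basement membrane collagen that is not on this list, fell by 0.40 (limma, adjusted p = 0.0291).

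H1f2, a linker histone, had 9.0 to 10.25 (median 9.89) at AM and 8.33 to 9.58 (median 9.29) at PM. The log2 change was -0.57 ± 0.06 (SE; limma, adjusted p = 8.97e-05), and the AM arrays lay above the PM arrays within each region. Prim1, the catalytic subunit of DNA primase, fell by 0.46 (limma, adjusted p = 0.000129). Mrpl43, a protein of the mitochondrial ribosome, fell by 0.46 (limma, adjusted p = 0.000123), and Sash1, a signalling scaffold protein, by 0.48 (limma, adjusted p = 8.97e-05). Sfxn1, a mitochondrial serine carrier, fell by 0.38 (limma, adjusted p = 8.97e-05), although a second probe set gave -0.02. All 5 genes were lower at PM within each of the 7 regions and kept their calls without each set in turn.

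Fabp7, the brain fatty acid binding protein of astrocytes and their precursors, had 8.40 to 11.14 (median 10.03) at AM and 7.90 to 10.23 (median 9.39) at PM. It fell by 0.48 on the log2 scale (limma, adjusted p = 0.0313), with regional changes from -0.88 in septum to -0.19 in hippocampus. Opalin, a membrane protein of myelinating oligodendrocytes that is on none of the lists and was not named by the rule, had -0.49 without passing (limma, adjusted p = 0.0611). The oligodendrocyte markers that were listed had changes from -0.161 to 0.029. Of 9 astrocyte and 9 oligodendrocyte markers, 0 passed by limma in either direction, with 0 and 3 of them at an unadjusted p under 0.05 over the set means. Their medians were -0.034 and -0.054. Parvb, an adaptor of integrin adhesions, fell by 0.43, Serpinb6a, a protease inhibitor, by 0.44 and Smim8, a small membrane protein, by 0.44 and, with another probe set, by 0.38. Further Parvb probe sets gave -0.12 and -0.16 without passing. Dab2, an endocytic adaptor, and Glb1, lysosomal beta-galactosidase, fell by 0.40 each. Sdf2l1, a chaperone cofactor of the endoplasmic reticulum, had 7.18 to 8.06 (median 7.44) at AM and 6.80 to 7.46 (median 7.13) at PM and fell by 0.38 (limma, adjusted p = 0.000822). Each of Fabp7, Parvb, Serpinb6a, Smim8, Dab2, Glb1, Sdf2l1 and Col4a5 lost its call without at least 1 set, with a highest adjusted p by limma of 0.0675 for Sdf2l1 to 0.385 for Parvb. Serpinb6a changed by -0.27 without the first PM set, and Dab2 and Glb1 each by -0.26 without the second. Among the 15 named genes that fell, 14 had negative values in all 7 regions, and Mmp14 in 6. They were named only with the same sign in at least 6 of 7 regions, which largely fixes this count.

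**Figure D2:**
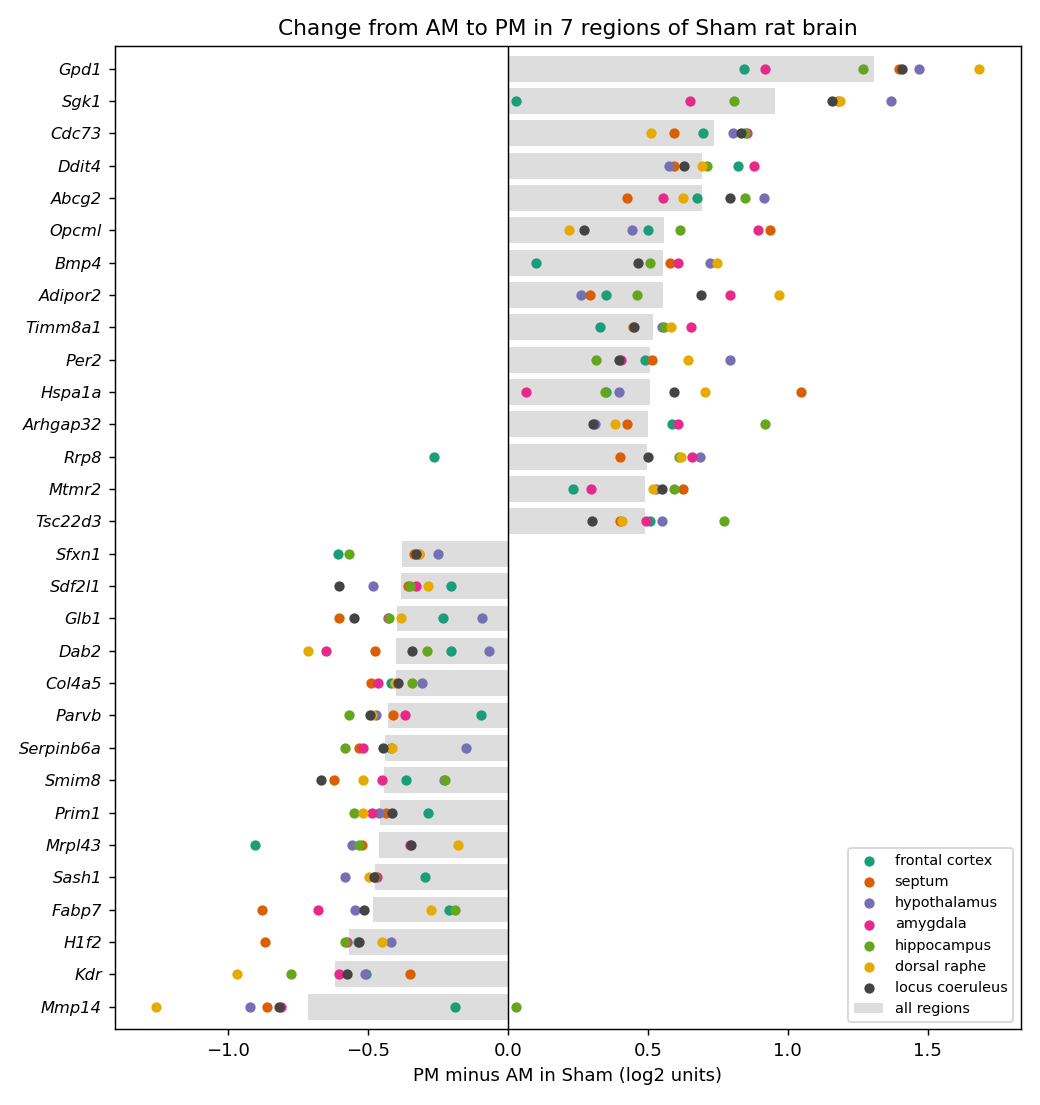
The PM minus AM difference in log2 units (x axis) for the 15 named genes with the largest rises and the 15 with the largest falls (y axis), as a grey bar for all regions together and a coloured point for each of the 7 regions. The points of a gene lie on 1 side of 0 except for Rrp8 in frontal cortex at -0.26 and Mmp14 in hippocampus at 0.03.

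Other lists held few calls. Of 36 genes of glucose and fatty acid fuel use, Gpd1, Pdk4 and Adipor2 rose and Slc16a1, the monocarboxylate transporter of vessels and glia, fell by 0.34 (limma, adjusted p = 0.0174). The median of that list was -0.036, and 1 gene rose without the first AM set. Of 21 chaperones and stress genes of the endoplasmic reticulum, Sdf2l1 fell, and Herpud1, a factor in protein degradation there, had 0.36 (limma, adjusted p = 0.0519). Among 19 genes of cholesterol synthesis 0 passed by limma and 2 had an unadjusted p under 0.05 over the set means. Of these 19, 15 had negative values, among them Sqle, a rate-controlling enzyme, with -0.25 (limma, adjusted p = 0.0535). Negative values were held by 7293 of all 14217 genes, by 16 of 19 trophic factor genes and by 24 of 33 matrix genes. Among 23 genes of RNA and ribosome production, Rrp8 alone passed. In the monoamine list of 26 genes, the neuropeptide list of 25, the trophic factor list of 19, the glutamate and GABA receptor list of 26 and the nuclear respiratory chain list of 27, 0 passed by limma. Over the 4 set means, 1, 1, 0, 2 and 4 genes of these lists had an unadjusted p under 0.05.

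**Figure D3:**
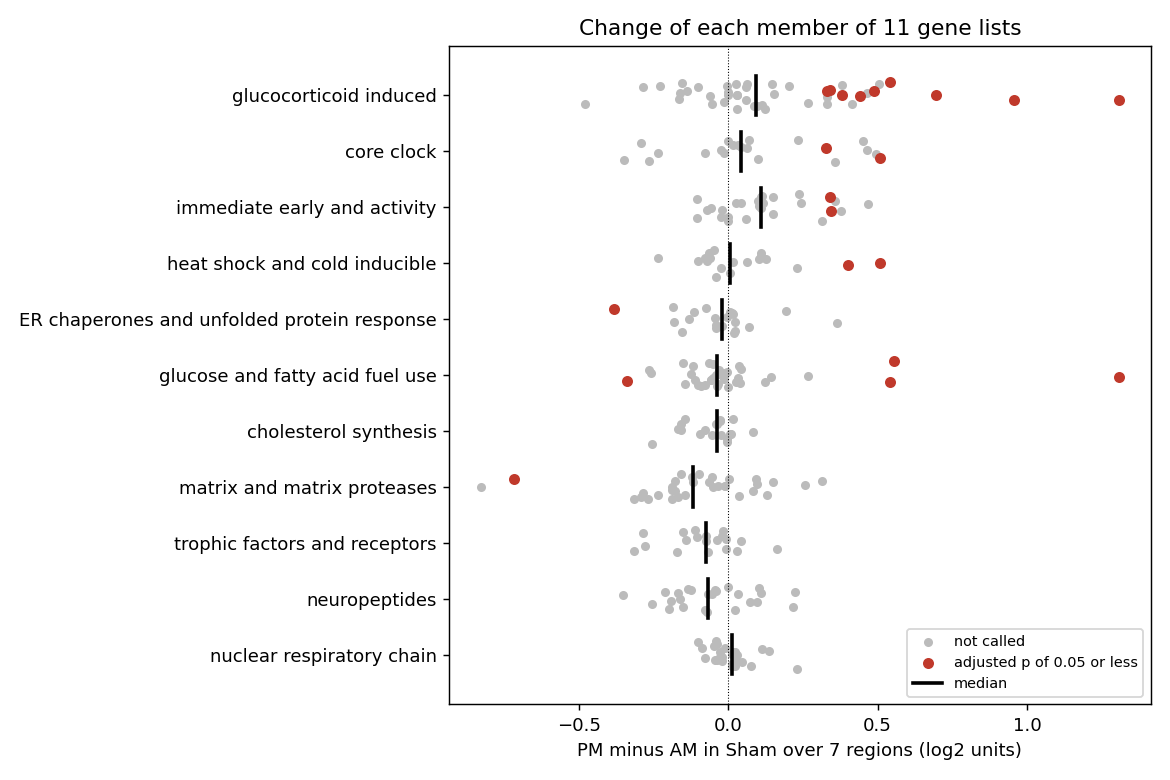
The PM minus AM change over the 7 regions in log2 units (x axis) of each measured member of 11 gene lists (y axis), with called genes in red, the others in grey and the median as a black bar. The glucocorticoid-induced list holds 9 called risers and the matrix list 1 called gene that fell, while the medians run from -0.118 to 0.110.

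The rule for named genes left out 33 called genes, 18 that rose by 0.13 to 2.40 and 15 whose changes ran from -0.64 to -0.22. Those named in this paragraph were picked after their values were seen, and they were not refitted without single sets. The largest change of any gene was that of Setd1b, a histone H3 lysine 4 methyltransferase, left out for a mean just under 6. Its log2 signal was 4.0 to 7.0 (median 4.37) at AM, with 4 arrays at the floor, and 6.29 to 7.60 (median 6.96) at PM. The log2 change was 2.40 ± 0.29 (SE; limma, adjusted p = 0.000184), from 1.19 in dorsal raphe to 2.93 in septum. Eva1a, a regulator of autophagy, had 4.0 to 5.25 (median 4.53) at AM and 4.87 to 5.87 (median 5.54) at PM and rose by 0.90 (limma, adjusted p = 0.000123). Klf15, a transcription factor of fuel metabolism, rose by 0.40, Plin4, a coat protein of lipid droplets, by 0.57, and Acer2, a ceramidase, by 0.65. Akap5, an anchor of protein kinase A at synapses, rose by 0.54, and Birc2, an inhibitor of cell death, by 0.27. Tfpi, an inhibitor of blood clotting, fell by 0.31 (limma, adjusted p = 0.00068). Elk3, a transcription factor of vessels, fell by 0.56, Map4, a microtubule-associated protein, by 0.33, and Pnp, an enzyme that breaks down purine nucleosides, by 0.28.

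Region by region, few probe sets passed, and most that did lay near the floor. The calls numbered 348 in frontal cortex (1.12% of those tested), 36 in septum (0.116%), 22 in hypothalamus (0.0709%), 18 in amygdala (0.058%), 24 in hippocampus (0.0773%), 37 in dorsal raphe (0.119%) and 21 in locus coeruleus (0.0677%). Of the 348 in frontal cortex, 335 had a regional mean under 6, and that region has 1 AM array. Of the others, 32, 17, 17, 22, 31 and 19 were that low, in the same order. With only probe sets of mean 6 or more tested, limma called 1, 1, 5, 0, 1, 1 and 1, with 509 at an unadjusted p under 0.05 in amygdala. Leaving out 1 array, so that a lone array stood for a time, gave 785 to 1101 calls in frontal cortex and 91 to 362 in the other regions. On the values as deposited the split of rises and falls was 598 to 11 in dorsal raphe, 54 to 8 in locus coeruleus and 0 to 6 in hypothalamus, against 20 to 17, 15 to 6 and 10 to 12 after quantile normalization. After median scaling it was 8 to 4 in amygdala and 13 to 15 in hippocampus, against 9 to 9 and 8 to 16. In dorsal raphe only the PM arrays had been brought to the common trimmed mean, so time and deposited scaling cannot be told apart there.

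Gpd1 passed in 4 single regions by limma. In septum its arrays had 7.84 and 7.41 at AM and 9.08 and 8.96 at PM (limma, adjusted p = 0.0289). In hypothalamus the AM arrays had 7.42 and 7.09 and the PM arrays 8.73 and 8.72 (limma, adjusted p = 0.0327). Dorsal raphe had 7.66 and 7.62 against 9.06 and 9.59, and locus coeruleus 7.83 and 7.82 against 9.24 and 9.23 (limma, adjusted p = 0.00944 and 0.0475). In the remaining regions Gpd1 was higher at PM as well, by 0.85 in frontal cortex, 0.92 in amygdala and 1.27 in hippocampus, without passing.

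Per2 passed in hypothalamus, with 7.15 and 7.08 at AM and 7.91 and 7.90 at PM (limma, adjusted p = 0.0129), and in dorsal raphe (limma, adjusted p = 0.0423). Dnajb1 rose by 0.64 and Mmp14 changed by -1.26 in dorsal raphe. In locus coeruleus Tob2, an inhibitor of cell proliferation, had 5.77 and 5.69 at AM and 6.53 and 6.58 at PM (limma, adjusted p = 0.0495). Mrpl43 fell in frontal cortex, septum, hypothalamus and hippocampus, by 0.90, 0.52, 0.56 and 0.53. Sfxn1 fell by 0.61 in frontal cortex and by 0.57 in hippocampus. In septum, Gpnmb, a glycoprotein of lysosomes and phagocytes, had 6.94 and 6.64 at AM and 5.89 and 5.97 at PM (limma, adjusted p = 0.0279), while its change in the other regions ran from -0.32 to 0.23. Fndc3c1 fell by 0.58 in hypothalamus, from 6.31 and 6.39 to 5.77 and 5.77, and was at the floor of the scale on the arrays of the other regions. In frontal cortex Rsrp1 rose by 0.81 and Xpc, a DNA damage sensor, by 0.46, and Mas1, Ubash3b and Twsg1 had changes of -1.0, -0.69 and -0.65, each against the lone AM array. No gene of mean 6 or more passed in amygdala.

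Whether the change differed between regions was tested by a moderated F test over the 7 regional changes. It called 298 probe sets (0.96%), of which 290 had a mean under 6. Only 1 of the 298 was also among the 128 called across regions. With probe sets of mean 6 or more the F test of limma called 0, with 301 at an unadjusted p under 0.05. Without frontal cortex it called 66, and without 1 set it called 652 to 1422. Mrpl43 was the gene called by both tests, with falls from 0.18 in dorsal raphe to 0.90 in frontal cortex (limma, adjusted p = 0.0473 by the F test). Boc, a cell surface receptor of hedgehog signalling, had -1.50 in hippocampus and -1.54 in dorsal raphe. Its PM arrays of hippocampus and dorsal raphe lay at or near the floor, so the sizes of these falls are uncertain. In the other regions the values of Boc were at most 0.145 in size. Grin3a, a subunit of NMDA receptors, had -1.37 in hippocampus against -0.52 to 0.38 elsewhere. Sgk1, whose regional changes ran from 0.03 to 1.37, did not pass this test.

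The summed signal of some tissue markers varied between the arrays of a region. Of the sums given here, the AM and PM ranges overlapped for all but blood in septum. The summed linear signal of 6 choroid plexus markers was 210 to 1989 at AM and 154 to 300 at PM in septum, and 6420 to 7371 at AM against 280 to 6997 at PM in amygdala. The sum of the 5 blood markers in septum was 2741 to 3921 at AM and 1587 to 2137 at PM, and in hypothalamus 3902 to 5182 at AM and 5118 to 7161 at PM. The 7 pituitary markers in hypothalamus summed to 655 to 1022 at AM and 853 to 2347 at PM. Markers of locus coeruleus summed in that region to 1280 to 3455 at AM and 1307 to 1845 at PM. Cerebellum markers in dorsal raphe summed to 860 to 2964 at AM and 933 to 1006 at PM. Hypothalamus markers in amygdala summed to 243 to 2175 at AM and 243 to 851 at PM. Over all regions none of the choroid plexus, blood and pituitary markers was called by limma in either direction, and 0, 2 and 1 of them had an unadjusted p under 0.05 over the set means. In dorsal raphe the 3′ to 5′ signal ratio of actin probes, a measure of RNA integrity, was 6.03 and 4.53 at AM and 4.73 and 3.16 at PM. Their part in the results was not tested. In such tissue samples, fewer cells of a type and less RNA per cell cannot be told apart.

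The same difference in the ADX and pADX arrays was set beside that in Sham, in 1 fit of 78 arrays with time within each treatment. This fit was added after the main design was fixed. Among the 128 probe sets called in Sham, 84 had the same sign in ADX (65.6%, against 62.1% of all probe sets of mean 6 or more) and 78 in pADX (60.9%, against 53%). With the same sign, 3 were called in ADX and 5 in pADX, where 130 (0.419%) and 32 (0.103%) of all probe sets were called. The difference between the Sham change and the ADX change passed for 78 of all probe sets (0.251%), and the difference from pADX for 74 (0.238%). Without 1 set, the count for ADX ran from 48, without the second AM set of ADX, to 135, without the second PM set of Sham, and it was 125 without the first PM set of Sham. The Sham change was the higher for 46 of the 78 and the lower for 32, but for 95 and 1 on the values as deposited. Of the 128, 38 and 36 were among these, but the Sham arrays that chose the 128 also enter the difference, so these counts are a description.

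Several named risers differed between Sham and the other treatments. They were named for a rise in the same Sham arrays that enter the difference, so its p values are not independent of that choice. Gpd1 had a log2 change of 0.05 ± 0.08 (SE) in ADX and of -0.21 ± 0.08 (SE) in pADX, neither of which passed. The Sham change exceeded the ADX change by 1.25 (limma, adjusted p = 4.09e-11). Sgk1 had -0.12 and -0.32, and its Sham change was higher than that in ADX by 1.08 (limma, adjusted p = 4.5e-06), or by 0.69 without the first PM set of Sham. For Tsc22d3, with 0.03 and -0.05, the difference from ADX was 0.46 (limma, adjusted p = 5.11e-05). Mtmr2, with -0.03 and 0.06, differed by 0.52 (limma, adjusted p = 1.1e-05). Ddit4 rose in ADX by 0.35 (limma, adjusted p = 0.00477) and in pADX by 0.31 (limma, adjusted p = 0.0432), and the differences from Sham, 0.345 and 0.38, did not pass. Klf9, Fkbp5, Plekhf1 and Pdk4 did not differ from ADX at the threshold, with differences of 0.22, 0.38, 0.28 and 0.50. Against pADX, the Sham change was higher for Klf9 by 0.46, for Plekhf1 by 0.48 and for Mertk by 0.57 (limma, adjusted p = 0.0114, 0.043 and 0.0117).

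Per2 had -0.12 in ADX and 0.19 in pADX, neither passing. Its Sham change was higher than that in ADX by 0.63 (limma, adjusted p = 1.81e-05), while the difference from pADX, 0.32, did not pass (limma, adjusted p = 0.216). Hspa1a had -0.16 in ADX and rose by 0.45 in pADX (limma, adjusted p = 0.00711), and the Sham change exceeded that in ADX by 0.67 (limma, adjusted p = 0.000843). Dnajb1 had 0.06 in ADX and rose by 0.28 in pADX (limma, adjusted p = 0.0102), and its Sham change exceeded that in ADX by 0.34 (limma, adjusted p = 0.0225), or by 0.21 without the second PM set of ADX (limma, adjusted p = 0.392). The Sham change of Egr1 was higher than that in ADX by 0.60 (limma, adjusted p = 0.000954), with -0.26 in ADX and 0.25 in pADX. The difference from ADX passed for 12 of the 24 named risers, and that from pADX for 9. Over all probe sets the shares were 0.251% and 0.238%, but the risers were chosen from the same Sham arrays, so these counts are a description. Of these 12, the differences of Adipor2, Opcml, Timm8a1, Rrp8 and Dnajb1 failed without at least 1 set of Sham or ADX, and that of Timm8a1, 0.57, became 0.36 without the second AM set of ADX.

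Of the 15 named genes that fell, 5 differed between Sham and ADX and 3 between Sham and pADX, where 0.251% and 0.238% of all probe sets did. These genes too were chosen from the same Sham arrays, so the counts are a description. H1f2 had 0.08 in ADX, a difference of -0.65 (limma, adjusted p = 0.000397), and Sash1 0.12, a difference of -0.60 (limma, adjusted p = 4.5e-06). Fabp7, Col4a5 and Sfxn1 had 0.14, 0.19 and -0.04 in ADX, with differences of -0.62, -0.60 and -0.33. On the values as deposited, without further normalization, all 5 differences were smaller and did not pass, that of H1f2 being -0.38 (limma, adjusted p = 0.278) and that of Sfxn1 -0.06. The difference of Sfxn1 also failed without the second AM set of Sham or either second set of ADX. Mrpl43, with -0.27 in ADX and 0.25 in pADX, differed from pADX by -0.72 (limma, adjusted p = 4.83e-05) and not from ADX. H1f2 and Serpinb6a were the other genes that differed from pADX, by -0.53 and -0.57 (limma, adjusted p = 0.0109 and 0.0176).

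**Figure D4:**
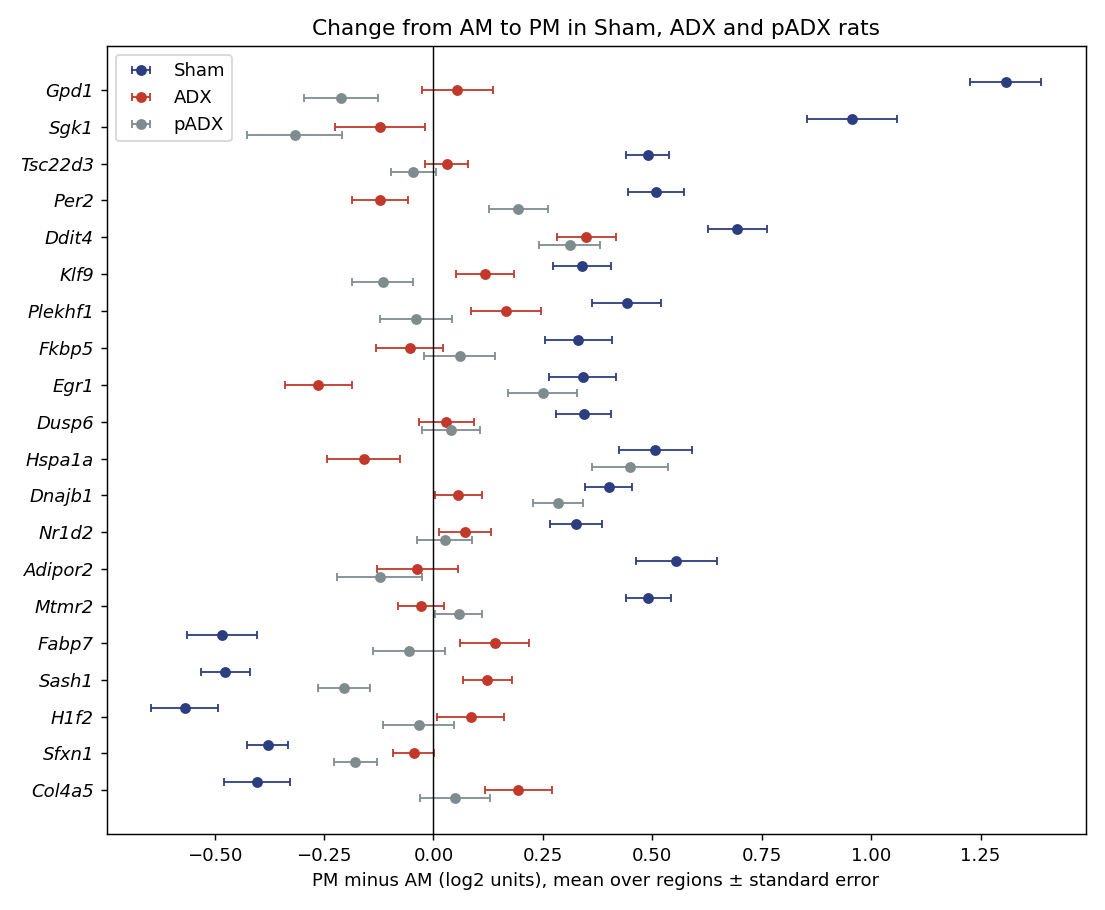
The PM minus AM change in log2 units with its standard error (x axis) for 20 genes (y axis) in Sham (blue), ADX (red) and pADX (grey), as the mean over regions in the fit of 78 arrays. Gpd1 stands at 0.05 in ADX and -0.21 in pADX against more than 1 in Sham, whereas the 3 points of Ddit4 all lie to the right of 0.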

How the data were processed

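Per the deposited files' columns, each array (Affymetrix rat, 31099 probe sets) holds a signal intensity per probe set on a linear scale, computed by the authors with software that no source used here names. The 57 control probe sets were left out. Intensities of 82 arrays were quantile normalized, floored at 16 and put on the log2 scale. Of 31042 probe sets, 20826 had 1 gene symbol, 436 several and 9780 none, and 20758 were matched to RefSeq of GRCr8. A gene with several probe sets was represented by that of highest mean. The number of arrays limits the precision.

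Fits used limma 3.58.1 in R 4.3.3 with a trend: region plus time over 27 Sham arrays, with the 4 sets of time and replicate letter as a random block (duplicateCorrelation, with the correlation estimated from probe sets with no array at the floor, since constant probe sets gave no stable estimate, a choice made after the data were seen), 14 region by time means for single regions and the F test, and 78 arrays for the treatments (no hippocampus pADX arrays, and 2 arrays whose titles give no group left out). P values were adjusted over all probe sets. Named genes were the 15 largest called rises and 15 largest falls with a mean of at least 6 and the same sign in at least 6 of 7 regions, called members of the clock, glucocorticoid and immediate early lists, a fixed set of clock and glucocorticoid genes, the 5 largest called changes each way in a region and the 10 smallest p values of the F test. Comparisons, members and lists were chosen with earlier results of these data known. The region fits were tested on simulated data with independent noise and no block, which does not cover the set block or the treatment fit. Alternatives covered scaling, floor, filter, block, regions and sets.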

Additional observations from a re-analysis of the deposited data

Results flagged for a closer look

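Differences between regions and between treatments passed a test of the difference itself for some named genes. The moderated F test over the 7 regional changes passed for 6 named genes, with limma adjusted p of 3.42e-10 for Fndc3c1, 0.0166 for Boc, 0.0173 for Grin3a, 0.0269 for Usp19, 0.0328 for Tmem203 and 0.0473 for Mrpl43. Fndc3c1 was at the floor on every array outside hypothalamus. These constant values shrink the spread that the fit shares between regions, so its small p value does not measure variation between samples. Boc was at or near the floor on its PM arrays of hippocampus and dorsal raphe. Usp19, a deubiquitinating enzyme, had regional changes from -0.52 in locus coeruleus to 0.36 in hippocampus, and Tmem203, a membrane protein, from -0.41 in frontal cortex to 0.25 in dorsal raphe. With probe sets of mean 6 or more tested, 0 passed this F test by limma, with 301 at an unadjusted p under 0.05.

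The change from AM to PM was higher in Sham than in ADX for 12 named genes, by 1.25 for Gpd1, 1.08 for Sgk1, 0.91 for Opcml, 0.67 for Hspa1a, 0.63 for Per2, 0.60 for Egr1, 0.59 for Adipor2, 0.57 for Timm8a1, 0.52 for Mtmr2, 0.50 for Rrp8, 0.46 for Tsc22d3 and 0.34 for Dnajb1 on the log2 scale. It was lower in Sham for 5, by -0.65 for H1f2, -0.62 for Fabp7, -0.60 for Sash1, -0.60 for Col4a5 and -0.33 for Sfxn1. These genes were named for a change in the same Sham arrays, so the sign of the difference is partly set by that choice.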

How the results depend on the processing

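The count of calls across regions moved with the choice of block and arrays. From 128, it became 230 with no random block and 290 with the replicate block, that is with the replicate number as a fixed term in place of the sets. It became 0 with the 4 set means (limma, 2612 at an unadjusted p under 0.05), 329 with all 80 arrays in the fit and 9 in the 4 regions at the common scale. Leaving out a region gave 225 without frontal cortex, 61 without septum, 79 without hypothalamus, 62 without hippocampus and 69 without locus coeruleus. Leaving out 1 set gave 76 to 427, and leaving out the second PM array of frontal cortex, an alternative chosen after seeing the data, gave 228. The labels do not say whether the replicate numbers pair AM with PM arrays. The correlations of the replicate differences of AM and PM ran from -0.205 in hypothalamus to 0.0867 in locus coeruleus, which cannot settle it. The replicate block moved none of the counts of single regions, of the F test or of Sham against ADX by over 1.5 times. With crossed numbers, hypothalamus and amygdala fitted alone gave 0 calls each (limma, 1471 and 1348 at an unadjusted p under 0.05).

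With each region fitted alone, the calls were 813 in frontal cortex, 6 in septum, 4 in hypothalamus, 9 in dorsal raphe and 0 in hippocampus (limma, 2300 at an unadjusted p under 0.05). On the deposited values they were 113 in frontal cortex, 65 in septum, 6 in hypothalamus, 609 in dorsal raphe, 62 in locus coeruleus and 0 in hippocampus (limma, 1321 at an unadjusted p under 0.05), and 186 by the F test. Median scaling gave 32 in locus coeruleus. With probe sets of mean 6 or more, they were 1 in frontal cortex, 1 in septum, 5 in hypothalamus, 0 in amygdala (limma, 509 at an unadjusted p under 0.05), 1 in hippocampus, 1 in dorsal raphe and 1 in locus coeruleus, and 0 by the F test (limma, 301 at an unadjusted p under 0.05), which called 66 without frontal cortex. Leaving out 1 array gave 785 to 1101 in frontal cortex, 116 to 178 in septum, 91 to 114 in hypothalamus, 99 to 130 in amygdala, 128 to 230 in hippocampus, 138 to 362 in dorsal raphe and 96 to 177 in locus coeruleus. In those fits the lone array of a group is assumed to vary like the others. Leaving out 1 set gave 652 to 1422 for the F test and 48 to 135 for Sham against ADX.

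Of the 39 named genes called across regions, Gpd1, Per2 and Sfxn1 lost the call only with the 4 set means among 23 alternatives, and the other 36 lost it in the 4 regions at the common scale. None of the 39 changed sign. Among genes that were not called, Bhlhe41 had -0.01 after median scaling and -0.02 to 0.07 over the fits without 1 set, and Cry2 -0.09 to 0.04. The limits are the 4 sets, 1 AM array in frontal cortex, and signals at the floor, where a change has no measured size.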
